A study of Arabidopsis thaliana with 27 samples.

Results

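The methyl jasmonate time course consisted of 4 arrays, taken 2, 5, 10 and 24 h after plants were sprayed with 0.1 mM methyl jasmonate (MeJA), out of 27 arrays in the series. The arrays were chosen by their titles, which give the dose and time under the name JA, while their source names say MeJA. All 416 genes that the array names were followed, not a selection by response. Of these, 244 had a value at all 4 times, 134 had a value at 1 to 3 times and 38 had none. Tests were made on 234 of the 244.

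The series set 6 plant activators, each at 4 times, against untreated Arabidopsis thaliana. MeJA-treated and untreated plants were both of ecotype Columbia, 28 days old and grown in soil, with no transgene or mutation named. Treated RNA carried the dye Cy5 and untreated RNA the dye Cy3 on a spotted cDNA array of genes picked for a possible role in stress, with 0 dye swaps. The other 5 agents were 5 mM SA (salicylic acid), 1 mM INA and 0.5 mM BTH (synthetic activators of the salicylate pathway), 10 mM BABA (beta-aminobutyric acid) and 1 mM ET (ethephon, which releases ethylene). Sprayed plants were kept at high humidity, and no mock spray of the untreated plants is described, so a difference from untreated plants cannot be told apart from effects of spraying, humidity or dye. Plants of several experiments were pooled before RNA was extracted, and 1 array was made per MeJA time. The tissue is labelled as leaves in one place and as the plant without its root in another. Ratios carry no levels, so tissue markers could not be checked.

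Jasmonates are lipid-derived hormones made in the plastid and the peroxisome after wounding or attack by chewing insects and some fungi. The conjugate of jasmonic acid with isoleucine binds the receptor COI1, JAZ repressors are then degraded, and MYC factors switch on defence genes. The pathway also switches on its own brakes, among them oxidases that inactivate jasmonic acid. In leaves it is known for defensins, thionins, lectins and beta-glucosidases stored in bodies of the endoplasmic reticulum (ER bodies), while it slows growth.

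Values are log2 ratios of treated to untreated RNA, each array centred on its own median and the spots of a gene averaged. A value of 1 is therefore a doubling against the middle of that array, if the deposited logarithm has base 2, which is not stated. On the 4 arrays 2255, 2079, 2018 and 1645 spots had a value at 2, 5, 10 and 24 h, and 360, 351, 337 and 263 named genes, so the 24 h array was the sparsest. Before centring, the array medians lay at −0.06, 0.75, −0.03 and 0.52 in the same order. Spots of a gene on the same array agreed closely, with an SD of a spot between 0.169 and 0.240. Repeat arrays of the same RNA, which exist for 3 conditions of other agents and for none of MeJA, spread more, with an SD of one array between 0.392 and 0.453. One array of the INA 10 h pair is titled 10 h but has a source name of 2 h. It was kept by its title and averaged into INA 10 h, and without it the comparison of MeJA with the other agents below gave 70 calls of 173 genes in place of 78 of 181. In the widest of the 3 pairs, 95% of genes differed by less than 1.25 between arrays, and that difference is used below as a yardstick for single arrays.

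The MeJA response was present at 2 h and widest at 24 h. Among the 244 genes with all 4 values, 31, 30, 21 and 42 lay above 1 at 2, 5, 10 and 24 h, and 41, 28, 36 and 40 lay below −1. Values below −2 were rarest on the 5 h array (4 genes) and most frequent on the 24 h array (21), with 12 and 9 genes on the 2 h and 10 h arrays. The SD over genes was 1.19, 1.03, 1.06 and 1.48. The 24 h array was thus the most dispersed and the 5 h array the least, on single arrays and with no test. A total of 58 genes were above 0 at all 4 times, 56 were below 0 at all 4 and 130 were mixed.

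Among the 244, a jasmonate oxidase gene or another known jasmonate target led the high end at each time, and cold-response genes were first or next to first at the low end. The highest value was AT3G28220 at 2 h (4.49) and AT5G05600 at 5 h (4.43), 10 h (2.60) and 24 h (3.71). The lowest was AT3G62550 at 2 h (−4.51), COR15B at 5 h (−4.45), COR15A at 10 h (−5.76) and COR15B at 24 h (−5.67). Above 1 at all 4 times stood 9 genes: AT5G05600, AT3G28220, FAMT, AT1G52000, AT1G54010, JAL34, PPDK, AT1G66100 and AT2G41410. Below −1 at all 4 times stood 12 genes: COR15A, COR15B, COR47, KIN1, RD2, AT4G30650, AT5G08500, AT5G17460, AT4G38550, AT4G05150, AT1G48210 and MAP1C.

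For tests, the 2 and 5 h arrays formed an early phase and the 10 and 24 h arrays a late phase. In limma, 1 mean for each agent in each phase was fitted to all 24 conditions, and p-values were Benjamini-Hochberg adjusted over the tested genes with a threshold of 0.05. The replicates of a phase are its 2 times, so p-values measure the spread between times, which holds real change and technical spread together. Every other agent lends its spread between times to that estimate. A gene was tested if it had all 4 MeJA values and a value in at least 16 of the 24 conditions.

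In the early phase 48 of 234 genes (20.5%) were called, 24 above (10.3% higher) and 24 below (10.3% lower) untreated plants. Late, 48 of 234 (20.5%) passed, 23 higher (9.83%) and 25 lower (10.7%). The calls fell into 24 genes in both phases, 24 in the early phase alone and 24 in the late phase alone, and all 24 shared calls had the same sign in both phases. The smallest called difference was 0.86 early and 0.85 late, each a little under a doubling. The early count dropped to 13 without the 2 h array, and the late count to 14 without the 24 h array. Of the genes described below, AT1G48210, AT4G38550, DRT100, ECS1, KIN1, MAP1C and RD2 lost the early call without centring, with adjusted p between 0.0684 and 0.318. APL3, AT5G44020, AT5G64120, BGLU44, FDH, MCCB, RD2, scpl35 and TUA5 lost the late call there (0.0683 to 0.344). Fitting the 4 MeJA arrays alone lost the early calls of AT1G62660, AT4G38550, DER2.2, MAP1C and OPCL1 (0.0592 to 0.119) and the late calls of APL3, AT5G64120, BGLU22, BGLU44, FDH, MCCB and scpl35 (0.0542 to 0.104). The plot of late against early means shows the 6 listed cold genes below the diagonal, and high genes on both sides of it, with AT3G28220 below and PPDK above.

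**Figure D1:**
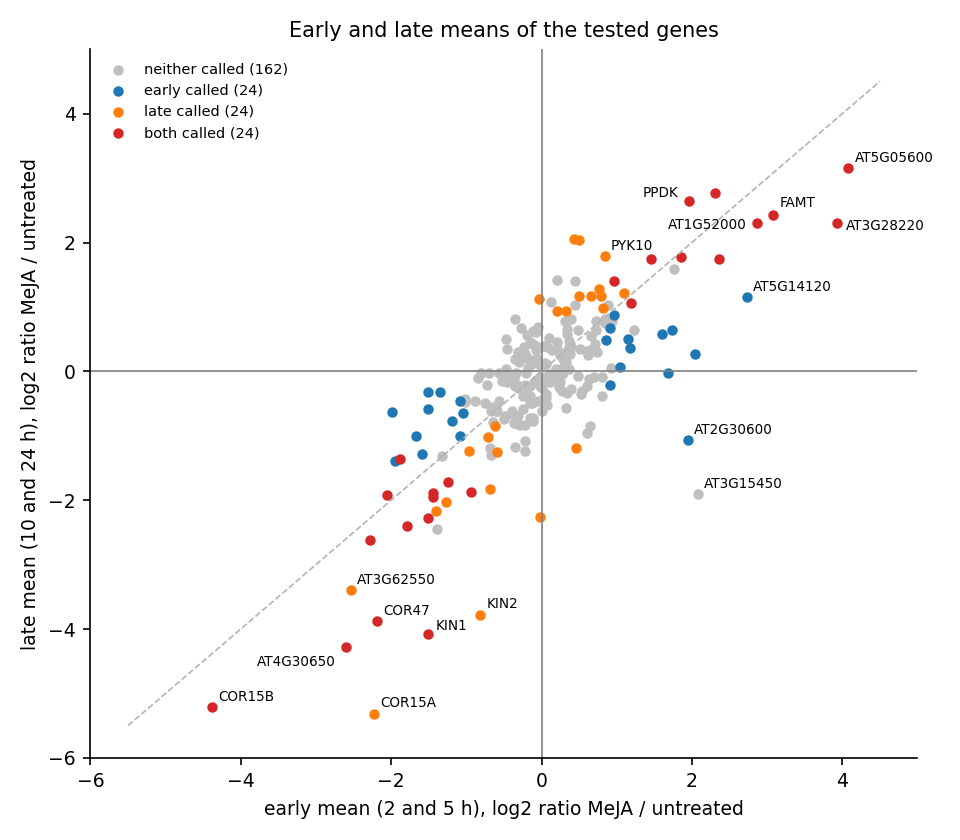
Each point is 1 of the 234 tested genes, with the early mean (2 and 5 h) on the x axis and the late mean (10 and 24 h) on the y axis, both as log2 ratio of MeJA to untreated, and the dashed line marks equal means. Colours give the phase in which a gene passed an adjusted p of 0.05 (24 early alone, 24 late alone, 24 in both, 162 in neither); AT5G05600 lies highest in both phases, and COR15A, KIN1, KIN2 and COR47 lie below the line.

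A gene that breaks down jasmonate rose early and stayed high. AT5G05600, a jasmonic acid oxidase that inactivates the hormone, read 3.73, 4.43, 2.60 and 3.71 at 2, 5, 10 and 24 h. All 4 values lay above 2.5, with the lowest at 10 h. The early mean was 4.08 ± 0.39 (SE of the fit, 16.9-fold, limma adjusted p = 2e-06) and the late mean 3.16 ± 0.39 (8.92-fold, adjusted p = 1.87e-05). A second oxidase of the same family, AT2G38240, gave the highest single reading of any named gene on the MeJA arrays, 5.93 at 2 h, and 2.69 at 5 h, with no value at 10 and 24 h. It was therefore not tested. Of 10 listed turnover genes, these 2 are on the array.

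Of the 20 listed genes of jasmonate synthesis the array names 2, and both stood far below the oxidases. OPCL1, a CoA ligase that activates the precursor for beta-oxidation in the peroxisome, read 1.41, 0.95, 1.05 and −0.32. It was above 0 at the first 3 times and slightly below at 24 h. Its early mean rose by 1.18 ± 0.30 (adjusted p = 0.00971, and 0.222 without the 2 h array), and its late mean was 0.36 (adjusted p = 0.397). JMT, the methyltransferase that makes methyl jasmonate from jasmonic acid, read 0.29, 0.38 and 1.20 at 2, 10 and 24 h and was not tested. None of the 19 listed signalling genes, JAZ repressors and MYC factors included, is among the named genes analysed here, so the signalling step itself was not observed.

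The jasmonate output genes on the array were high to differing degrees. AT3G28220, a TRAF-like protein gene, read 4.49, 3.37, 2.19 and 2.41, highest at 2 h and about 2 log2 units lower from 10 h on. It rose early by 3.93 ± 0.65 (adjusted p = 0.000393) and late by 2.30 ± 0.65 (adjusted p = 0.0155). The late call was lost when either late array was left out, with an adjusted p of 0.0753 without 10 h and 0.204 without 24 h. FAMT, a carboxyl methyltransferase of the family that also holds JMT, read 2.60, 3.55, 2.58 and 2.27, with its peak at 5 h. Its early mean was 3.08 ± 0.38 (adjusted p = 2.06e-05) and its late mean 2.42 ± 0.38 (adjusted p = 0.000168).

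Among antimicrobial peptide genes of the same list, AT1G66100 alone had the values for a test, and it was not called against untreated plants. The thionin gene AT1G66100 read 2.08, 1.43, 1.23 and 1.95, all 4 above 1. The spread between times, estimated over all agents, was wide for this gene, and neither the early mean (1.76 ± 0.65, adjusted p = 0.0633) nor the late mean (1.59 ± 0.65, adjusted p = 0.0923) passed. THI2.1, another thionin, read 0.36, 0.55 and 0.14 at the first 3 times. PDF1.2, the plant defensin often used as a marker of combined jasmonate and ethylene action, had values at 2 times, 0.57 at 5 h and 2.94 at 10 h. Close copies of PDF1.2 exist, and whether a spotted cDNA separates them was not tested. Over the outputs list, 2 of 3 tested genes rose in each phase, beside 10.3% of all tested genes early and 9.83% late, and the median was 3.08 early and 2.30 late, beside −0.02 and −0.08 over all tested genes.

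Genes of ER bodies and their lectins differed in when they were first high, although late minus early passed for none of them. An immediate set was high at 2 h and a delayed set was not. This split rests on the single 2 h array, was made after the values were seen and carries no test. The immediate set held the jacalin-like lectin AT1G52000, the jacalin lectin JAL34 and AT1G54010, a GDSL lipase-like protein found with them. AT1G52000 read 3.47, 2.27, 2.34 and 2.28, highest at 2 h and level after it. Its early mean was 2.87 ± 0.39 (adjusted p = 7e-05) and its late mean 2.31 ± 0.39 (adjusted p = 0.000346). JAL34 read 1.88, 2.83, 2.00 and 1.49, with a peak at 5 h, and rose by 2.36 ± 0.36 early (adjusted p = 0.000393) and 1.75 ± 0.36 late (adjusted p = 0.00295, and 0.058 without the 10 h array). AT1G54010 read 1.85, 2.76, 2.60 and 2.94 and was lowest at 2 h. It rose by 2.30 ± 0.38 early (adjusted p = 0.000393) and by 2.77 ± 0.38 late (adjusted p = 3.72e-05). JAL33, a neighbour of JAL34, read 0.98, 0.83 and 0.48 at the first 3 times and was not tested.

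The delayed set held the beta-glucosidases, which split defence glucosides when tissue is broken. PYK10, the main beta-glucosidase of root and seedling ER bodies, read −0.05, 1.72, 1.52 and 2.06. It was at the level of untreated plants at 2 h and above 1.5 at the 3 later times. The early mean, which averages 2 and 5 h, did not pass (0.84), and the late mean rose by 1.79 ± 0.43 (adjusted p = 0.00657, and 0.176 without the 24 h array). BGLU22 followed the same order, with −0.03, 1.04, 1.09 and 1.27, and rose late by 1.18 ± 0.29 (adjusted p = 0.00743, and 0.151 without the 24 h array). BGLU21, its neighbour and close homolog, read 0.20, 0.69, 0.82 and 1.25 and did not pass late (1.03 ± 0.40, adjusted p = 0.0878). From 2 to 5 h neither BGLU22 nor BGLU21 moved by more than the yardstick of 1.25, so a delay was not resolved for them. NAI2, which builds the ER body itself, read −0.09, 1.54, 1.27 and −0.01, above 1 at the 2 middle times and at 0 at the outer ones.

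Over the list, 3 of 7 tested genes rose early and 5 of 7 late, with none lower, beside 10.3% and 9.83% of all tested genes called higher. The median was 0.84 early and 1.75 late, beside −0.02 and −0.08 over all tested genes. PYK10, BGLU21 and BGLU22 are also the only 3 of 10 organ and cell markers on the array, since they are best known from roots. Whether a share of root tissue moved with these ratios was not tested. In bulk tissue, more cells of a type and more RNA per cell cannot be told apart.

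Cold and dehydration genes formed the low end of the course, and most read lower late than early. All 6 that the array names fell in the late phase, and 4 of the 6 in the early phase, beside 10.7% and 10.3% of all tested genes called lower in those phases. The median was −1.85 early and −3.97 late, beside −0.02 and −0.08 over all tested genes. None was called higher. The COR and KIN genes among them are targets of the CBF cold factors or of abscisic acid and protect membranes and proteins against freezing and water loss.

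COR15B, a chloroplast protein that stabilises membranes on freezing, read −4.30, −4.45, −4.77 and −5.67 and was at its low level from 2 h on. Its early mean was −4.38 ± 0.40 (20.8-fold lower, adjusted p = 3.8e-06) and its late mean −5.22 ± 0.40 (37.2-fold lower, adjusted p = 8.22e-07). Its homolog COR15A read −1.17, −3.28, −5.76 and −4.86, so it began higher and met COR15B by 10 h. The early mean of COR15A missed the threshold (−2.23 ± 0.81, adjusted p = 0.0576) and the late mean passed (−5.31 ± 0.81, adjusted p = 0.00011).

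KIN1 and KIN2, neighbouring genes for small hydrophilic proteins, read lower at each step, with late minus early at −2.56 ± 0.72 (adjusted p = 0.197) and −2.96 ± 0.95 (adjusted p = 0.23). KIN1 read −1.17, −1.86, −3.85 and −4.30, and fell early by 1.52 ± 0.51 (adjusted p = 0.0481) and late by 4.07 ± 0.51 (adjusted p = 3.72e-05). The early call of KIN1 was lost without any 1 of the 4 arrays, with adjusted p between 0.0551 and 0.372. KIN2 read −0.25, −1.39, −2.76 and −4.80. It was near the untreated level at 2 h and fell late by 3.78 ± 0.67 (adjusted p = 0.000444, and 0.0837 without the 24 h array). The members of the pairs COR15A and COR15B and KIN1 and KIN2 are similar in sequence, and how far a cDNA spot of one reads the other was not tested.

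The dehydrin COR47 read −1.65, −2.71, −3.84 and −3.91, and fell by 2.18 ± 0.44 early (adjusted p = 0.00168, and 0.0857 without the 5 h array) and by 3.88 ± 0.44 late (adjusted p = 4.43e-06). AT4G30650, of a family responsive to low temperature and salt and not on the list, read −2.39, −2.80, −4.00 and −4.56 and was called lower in both phases. RD2, a dehydration-responsive gene, was the mildest and flattest at −1.39, −1.11, −1.62 and −1.83, and fell early by 1.25 ± 0.37 (adjusted p = 0.0237) and late by 1.72 ± 0.37 (adjusted p = 0.00257). The early call of RD2 had an adjusted p of 0.261 without 2 h and 0.101 without 5 h, and the late call 0.0837 without 24 h. Both RD2 calls were also lost without centring (adjusted p = 0.318 early and 0.0747 late) and with centring on TUA5, which brought the means to −0.73 (adjusted p = 0.268) and −0.53 (adjusted p = 0.313).

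Low values of these genes were also found under other agents. Under ET, COR15B read −4.18, −5.41, −6.74 and −5.61, and under BTH −4.32, −4.56, −5.53 and −5.26. Under SA it read 0.16 and −0.41 at 2 and 5 h and under INA 0.97 and −0.42. The plot of the 6 genes by agent shows the MeJA line near those of ET and BTH for COR15B and COR47. For RD2 it shows MeJA below every other agent at every time. Against the mean of the other agents, 4 cold genes could be tested. The MeJA mean was lower for COR47 (−1.39 ± 0.34, adjusted p = 0.00332) and RD2 (−1.56 ± 0.29, adjusted p = 0.000395), beside 24.9% of all genes compared. It was not called for COR15A (−1.23 ± 0.63, adjusted p = 0.127) or KIN2 (−0.70 ± 0.52, adjusted p = 0.303). The COR47 mean was −3.03 under MeJA, −3.38 under BTH and −2.72 under ET, and −0.82 under SA, −0.37 under INA and −0.925 under BABA.

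**Figure D2:**
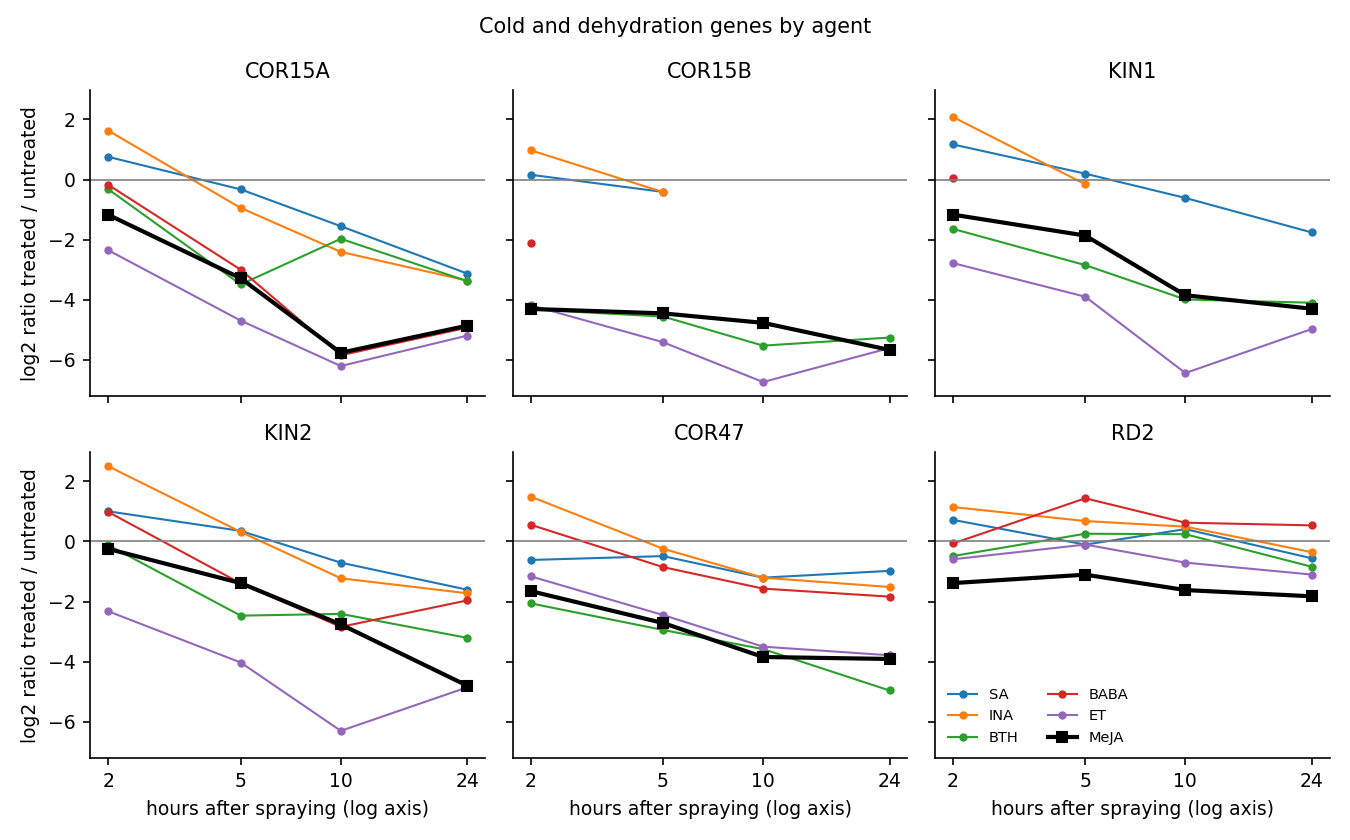
Log2 ratio of treated to untreated (y axis) against hours after spraying (log x axis) for 6 cold and dehydration genes, with MeJA in black squares and the other 5 agents in colour, 1 condition per point. MeJA reaches −5.76 for COR15A and −5.67 for COR15B, and lies below every other agent at all 4 times for RD2.

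Genes of primary metabolism moved in both directions. PPDK, pyruvate orthophosphate dikinase, which also works in amino acid breakdown during senescence and darkness, read 1.67, 2.26, 1.79 and 3.49. It rose by 1.96 ± 0.36 early (adjusted p = 0.000804) and by 2.64 ± 0.36 late (adjusted p = 3.72e-05), with its highest value at 24 h. The subunits of methylcrotonyl-CoA carboxylase, an enzyme of leucine breakdown, went apart. MCCA read 1.64, 1.57, 0.73 and 0.43 and rose early by 1.60 ± 0.51 (adjusted p = 0.0341, 0.251 without the 2 h array and 0.18 without the 5 h array). MCCB read −1.01, −0.42, −0.61 and −1.42 and fell late by 1.02 ± 0.27 (adjusted p = 0.013, and 0.418 without the 24 h array). That late mean turns to 0.18 when arrays are centred on TUA5. FDH, formate dehydrogenase, read 0.57, 1.61, 0.68 and 1.75 and rose late by 1.21 ± 0.40 (adjusted p = 0.0333, and 0.562 without the 24 h array). Over the amino acid catabolism list, 2 of 6 tested genes rose early, and late 2 rose and 1 fell. Over all tested genes 10.3% were called higher early, and 9.83% higher and 10.7% lower late.

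AT1G62660, a vacuolar invertase that splits sucrose, read 0.69, 2.23, 1.18 and 2.31 and rose by 1.46 ± 0.46 early (adjusted p = 0.0341) and 1.75 ± 0.46 late (adjusted p = 0.0109). Its early call had an adjusted p of 0.543 without the 5 h array and its late call 0.348 without the 24 h array. Against untreated plants it was the one called gene of 3 tested from the sugar starvation and darkness list. Over all tested genes, 10.3% were called higher early and 9.83% late. APL3, a large subunit of the starch enzyme ADP-glucose pyrophosphorylase, read −0.11, 0.05, 0.39 and 1.86. It passed late at 1.12 ± 0.35 (adjusted p = 0.0278), and without its 24 h value the adjusted p was 0.715.

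Genes of 2 transporters were called early and not late. AT5G14120, a major facilitator family transporter, read 2.57, 2.89, 1.51 and 0.80, and AT1G66760, a MATE efflux transporter, read 2.19, 1.88, −0.21 and 0.75. Both rose early, by 2.73 ± 0.49 (adjusted p = 0.000687) and 2.04 ± 0.44 (adjusted p = 0.00361, and 0.107 without the 2 h array), and neither passed late. The difference between phases did not pass for either (adjusted p = 0.425 and 0.308). AT2G41410, a calmodulin-like protein gene, read 1.65, 2.06, 1.23 and 2.32 and passed in both phases, the late one with an adjusted p of 0.00233, or 0.184 without the 24 h array.

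Among growth-related genes, DRT100, a leucine-rich repeat protein gene, read −1.72, −1.45, −1.69 and −0.88 and fell early by 1.58 ± 0.47 (adjusted p = 0.0232, 0.246 without the 2 h array and 0.109 without the 5 h array). The alpha-tubulin gene TUA5, which has 54 spots on the array, read −0.18, −1.01, −1.33 and −1.17, and fell late by 1.25 ± 0.30 (adjusted p = 0.00657), a fall that centring on its own spots removes by construction. The adjusted p of TUA5 was 0.0667 without the 10 h array and 0.0837 without the 24 h array. Proteases and inhibitors were matched by gene synonyms alone, so others on the array are not counted. Of the 3 tested matches, the methionine aminopeptidase MAP1C and the carboxypeptidase-like scpl35 were lower in both phases. They stood at −1.78 and −1.88 early and at −2.39 and −1.35 late. Over all tested genes, 10.3% were called lower early and 10.7% late. The third, scpl48, read 0.55, 0.24, 0.28 and 1.34, above 0 at all 4 times, and did not pass in either phase (adjusted p = 0.407 and 0.0744), but its mean was 1.23 ± 0.24 above that of the other agents (adjusted p = 0.000655). The MAP1C calls did not survive leaving out single arrays, with an adjusted p of 0.41 without 2 h and 0.109 without 5 h for the early phase and 0.412 without 24 h for the late one. The early call of scpl35 had an adjusted p of 0.106 without 2 h, and its late call 0.396 without 24 h. The late call of scpl35 was also lost without centring (−1.11, adjusted p = 0.138), on TUA5 (−0.16, adjusted p = 0.775) and when the 4 MeJA arrays were fitted alone (adjusted p = 0.0542).

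Other listed families held few calls. Enzyme families were matched by gene synonyms alone, so their counts cover the matched genes and not every member on the array. None of the 5 tested UDP-glycosyltransferases and none of the 2 tested cytochromes P450 so matched passed in either phase, beside 20.5% of all tested genes in each. Lists this short cannot show fewer calls than that share. UGT85A2 was called lower than the mean of the other agents over the course (−0.73 ± 0.26, adjusted p = 0.0337), a call lost in 7 other settings. Of 2 tested genes matched as class III peroxidases, AT5G64120 rose late by 1.17 ± 0.38 (adjusted p = 0.0333), beside 9.83% of all tested genes called higher late. Without the 24 h array its late value was 0.55. In the comparison with the other agents described below, its MeJA mean was called lower in every setting, at −2.22 to −1.60. ECS1, a small secreted cell wall protein gene on the list of salicylate outputs, read −1.88, −1.45, −0.61 and −1.40, and fell early by 1.67 ± 0.36 (adjusted p = 0.00349, and 0.123 without the 2 h array). EIN3, the master factor of ethylene signalling, read −0.85, 0.06, −0.63 and −0.62 and did not pass in either phase.

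The remaining early calls named by rank were AT2G30600, a sign-changing gene, and on the low side AT5G08500 (−2.29 ± 0.54, adjusted p = 0.00727), AT5G17460 (−2.06 ± 0.40, adjusted p = 0.00316), AT2G41090 (−1.99 ± 0.38, adjusted p = 0.00112) and AT1G48210 (−1.94 ± 0.53, adjusted p = 0.0197). AT2G41090 encodes a calmodulin-like protein and AT1G48210 a protein kinase. All 4 lost the call without the 2 h array, with adjusted p between 0.0839 and 0.335. On the late low side were AT3G62550 (−3.40 ± 0.92, adjusted p = 0.0139), AT5G08500 (−2.61 ± 0.54, adjusted p = 0.00233) and AT4G38550, a phospholipase-like protein gene (−2.27 ± 0.44, adjusted p = 0.00102). These 3 lost the call without the 24 h array, with adjusted p of 0.533, 0.151 and 0.157.

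The difference between phases was tested directly, late minus early, because a dye or spraying effect that is constant over time cancels in it. One gene of 234 (0.427%) passed, and 23 had an unadjusted p below 0.05 in limma. That gene was AT2G30600, a BTB/POZ domain protein gene, which read 2.25, 1.63, −0.02 and −2.12. It stood high at 2 and 5 h, at the untreated level at 10 h and low at 24 h. The late mean lay 3.01 ± 0.61 below the early mean (limma adjusted p = 0.03). Its early mean rose by 1.94 ± 0.43 (adjusted p = 0.00416, and 0.141 without the 2 h array), while its late mean was −1.07 (adjusted p = 0.0878). The phase difference had an adjusted p of 0.649 without the 2 h array, 0.536 without the 24 h array, 0.141 when the 4 MeJA arrays were fitted alone and 0.0852 without centring. A slope on log2 of time, fitted in place of the 2 phases, called 7 of 188 genes (3.72%), AT2G41090 upwards (0.532%) and AT2G30600, KIN2, COR47, OPCL1, AT2G01020 and AT3G10300 downwards (3.19%). The slopes of KIN2 and COR47 were −1.27 and −0.67 per doubling of time, each with an adjusted p of 0.0185.

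Genes that changed sign along the course were common in value and rare in test. Of 234 tested genes, 63 had early and late means on opposite sides of 0, 36 of them from high to low and 27 from low to high. In 2 of the 63, AT2G30600 and AT3G15450, both means lay beyond 1. AT2G30600 was again the 1 of 234 (0.427%) that passed the phase difference, and no gene passed both phases with opposite signs.

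AT3G15450, an aluminium-induced family protein gene that responds to sugar starvation and darkness, made the wider swing of the pair. It read 1.71, 2.44, −1.40 and −2.42, and dropped by 3.84 between 5 and 10 h, the steepest fall of that step. The phase difference of −3.99 ± 1.18 did not pass (adjusted p = 0.197). When the 4 MeJA arrays were fitted alone its adjusted p was 0.0162, while AT2G30600 missed the threshold in that fit (adjusted p = 0.141). Under the other agents the gene was still high at 10 h, at 3.65 with SA, 2.07 with INA, 1.68 with BTH, 3.41 with BABA and 1.61 with ET. At 24 h it read 1.48, −1.01, −1.23, −0.70 and 0.04 in the same order, so the MeJA value was the lowest at both late times. In the comparison of course means described below, AT3G15450 was called lower under MeJA than under the other agents. That call was lost in 9 other settings.

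With strict signs, 8 genes were above 0 at 2 and 5 h and below 0 at 10 and 24 h, and 4 ran the other way. Among the first were AT5G44020 of an acid phosphatase family, at 0.69, 0.23, −1.04 and −1.33, and AT1G78830, at 0.58, 0.63, −0.38 and −1.54. Apart from AT2G30600, their adjusted p for the phase difference ran from 0.197 up. The 4 opposite courses were small, with the widest in AT2G05920, at −0.47, −0.24, 0.51 and 1.10 (adjusted p = 0.535).

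**Figure D3:**
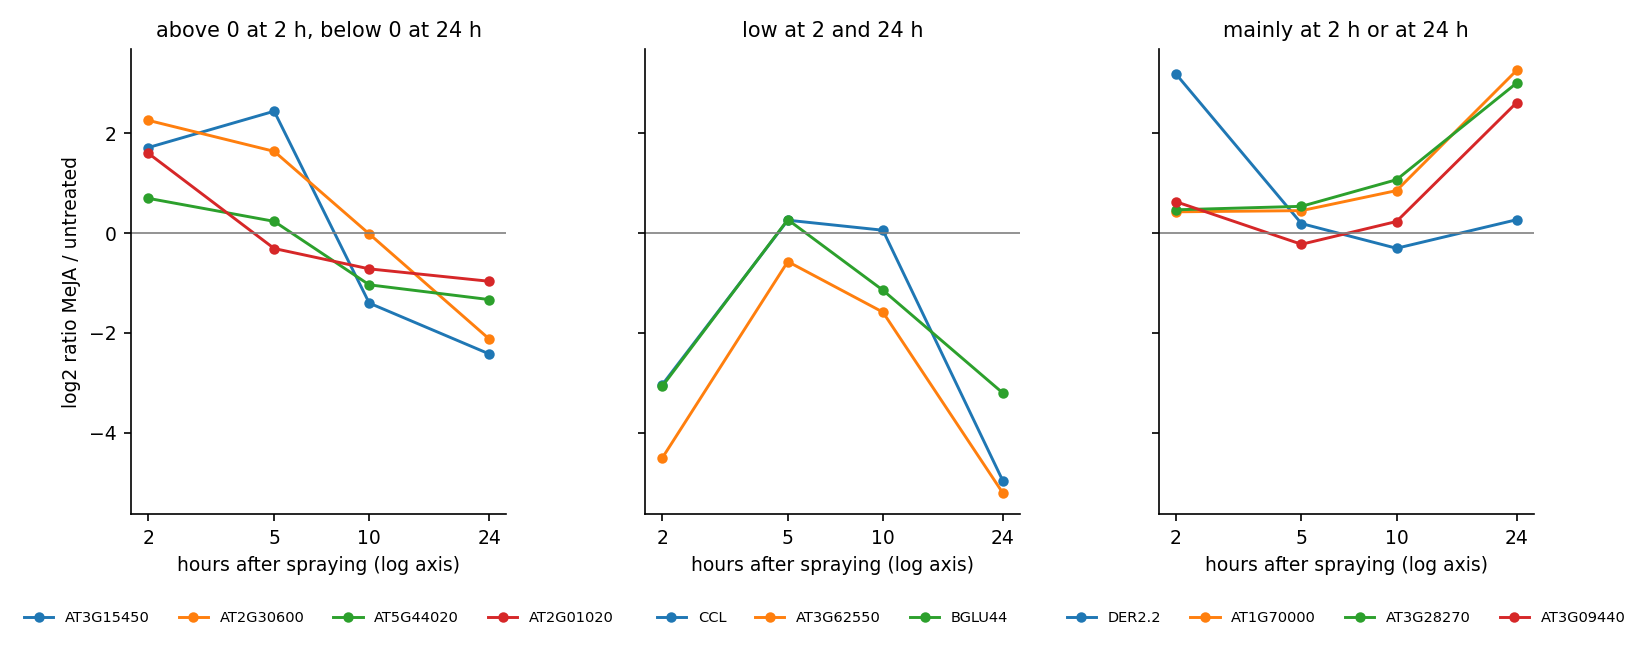
Log2 ratio of MeJA to untreated (y axis) against hours after spraying (log x axis), 1 array per point, for genes that cross 0 downwards (left), genes low at both 2 and 24 h (middle) and genes that stand out at 2 h or at 24 h (right). CCL goes from −3.04 to 0.26 and back to −4.96, and AT3G15450 from 2.44 at 5 h to −2.42 at 24 h.

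Steps between neighbouring times were set against the yardstick of 1.25. From 2 to 5 h 19 of 244 genes (7.79%) moved further than that, 12 up and 7 down. From 5 to 10 h 20 (8.2%) did, 2 up and 18 down. From 10 to 24 h 41 (16.8%) did, 18 up and 23 down. Between the repeat arrays that set the yardstick, 95% of genes stayed within it, so some genes pass it without any change. The shares of the earlier steps lay not far above that passing share, and which moves are real was not tested. Most large moves from 5 to 10 h were downward, and the last interval held the most moves. Over the whole course, 103 of 244 genes (42.2%) had a range wider than the yardstick, with a median range of 1.15. The range takes the extremes of 4 values, so it passes a limit for pairs more often than a pair does.

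A few genes followed courses that phase means hide. They were picked by shape after the values were seen and carry no test of shape. Low at both 2 and 24 h and higher between were CCL, AT3G62550, BGLU44 and NAI2. CCL, whose unstable transcript is known to cycle with the time of day, read −3.04, 0.26, 0.06 and −4.96, the widest range of any gene at 5.22. AT3G62550, a gene of the universal stress protein type, read −4.51, −0.57, −1.58 and −5.21. The beta-glucosidase BGLU44 read −3.07, 0.27, −1.14 and −3.20. The labels give no clock time of harvest, and no gene had the opposite course, high at both outer times by the same margin.

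Under the other 5 agents, too, CCL read lower at the outer times than at the middle ones. Under BTH it read −2.97, −0.54, −0.59 and −2.53, under SA 0.08, 1.54, 1.54 and −0.28, and under INA 0.42, 2.82, 2.07 and 0.28. Which of the outer times was lower varied, 24 h under MeJA and 2 h under BTH. Whether the arrays of a time share their untreated RNA is not stated.

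In other genes a single array stood apart. DER2.2, a derlin of ER protein quality control, read 3.19 at 2 h and 0.19, −0.31 and 0.27 after it. Its early mean passed (1.69 ± 0.47, adjusted p = 0.0197) although its 5 h value was near 0, and had an adjusted p of 0.893 without the 2 h array. PSAE-1, a photosystem I subunit, read −0.23, −0.22, −2.21 and −0.27, low at 10 h alone. At 10 h it also read −2.71 under SA, −2.61 under INA, −2.67 under BABA, −2.49 under ET and −1.21 under BTH. At 24 h AT1G70000, a MYB-like factor gene, read 3.25 after 0.42, 0.45 and 0.85, and AT3G28270 read 3.00 after 0.46, 0.53 and 1.07. Both passed late, with adjusted p of 0.0278 and 0.000814, but not without the 24 h array (0.663 and 0.149). AT1G70000 was highest at 24 h under other agents too, at 2.13 with ET, 1.17 with BTH, 0.40 with BABA and 0.23 with SA, with no INA value then. AT3G09440, a heat shock cognate protein gene, read 2.61 at 24 h after 0.63, −0.23 and 0.23 and did not pass late.

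Whether the course differs from that of the other agents was tested as an interaction. For late minus early against the mean of the other 5 agents, 0 of 181 genes (0%) passed in limma, and 6 had an unadjusted p below 0.05. For AT2G30600 the difference was −1.46 ± 0.67 and for AT3G15450 −2.62 ± 1.29, each with an adjusted p of 0.976.

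The mean over the course differed between MeJA and the other agents in many genes. Of 181 genes tested, 78 (43.1%) differed from the mean of the other 5 agents, 33 higher (18.2%) and 45 lower (24.9%). In this comparison a dye effect common to all arrays cancels. In 27 of the 33 the MeJA mean was above that of each single other agent, and in 38 of the 45 it was below each. These genes were called for a gap to the mean of the same agents, so the counts follow in part from the calls. The p-values hold the spread between times and not that between agents. Whether another agent stands equally far from the rest was not tested. All 4 tested ER body and lectin genes were higher, and all 3 tested jasmonate outputs.

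AT3G28220 showed the widest gap. Its mean over the 4 times was 3.12 under MeJA, against −1.52 with SA, −1.64 with INA, −2.43 with BTH, −3.21 with BABA and −2.04 with ET. The gap to their mean was 5.28 ± 0.50 (adjusted p = 4.26e-07), and no other condition gave a value above 0. AT1G52000 had the same pattern, at 2.59 under MeJA and between −2.06 and −0.85 under the others, with a gap of 3.97 ± 0.30 (adjusted p = 5.85e-08). The thionin AT1G66100, which missed the threshold against untreated plants, was 3.08 ± 0.51 above the other agents (adjusted p = 0.000123), all of which had a mean below 0. PYK10 averaged 1.31 under MeJA and between −1.40 and −0.13 under the others, a gap of 2.22 ± 0.34 (adjusted p = 5.63e-05).

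FAMT and AT1G54010 were high under MeJA and lower under the others, with gaps of 2.25 ± 0.30 (adjusted p = 1.79e-05) and 2.32 ± 0.30 (adjusted p = 1.78e-05). AT1G54010 averaged between −0.32 and 0.72 under the other agents, but at 24 h it read 1.57 with BABA and 1.51 with ET. The oxidase AT5G05600, by contrast, was high under most agents, at 2.84 with SA, 2.45 with INA, 2.57 with BABA, 2.64 with ET and 0.52 with BTH. Its MeJA mean of 3.62 lay 1.41 ± 0.30 above their mean (adjusted p = 0.00164). AT2G38240 too was high at 2 h elsewhere, at 1.62 with SA, 2.87 with INA, 2.50 with BTH and 3.42 with ET, beside 5.93 with MeJA.

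Of the 45 lower genes, 18 had a MeJA mean above 0, so MeJA was below the other agents and not below untreated plants. AT4G20830 and its neighbour AT4G20840, berberine bridge enzyme-like oxidases, read between −0.76 and 0.71 over the MeJA course and averaged between 0.89 and 2.97 under the others. The gaps were −2.53 ± 0.33 (adjusted p = 1.79e-05) and −2.12 ± 0.31 (adjusted p = 3.33e-05). AT2G39210, a major facilitator gene, averaged 0.44 under MeJA and between 1.68 and 3.70 under the others. AT4G38550 was different, since it was lower than untreated under MeJA (−1.89) and not below 0 under any other agent (0.09 to 2.64), a gap of −3.01 ± 0.34 (adjusted p = 3.9e-06). AT3G62550 lost its call in this comparison without the 2 h array (adjusted p = 0.132) or the 24 h array (0.12).

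**Figure D4:**
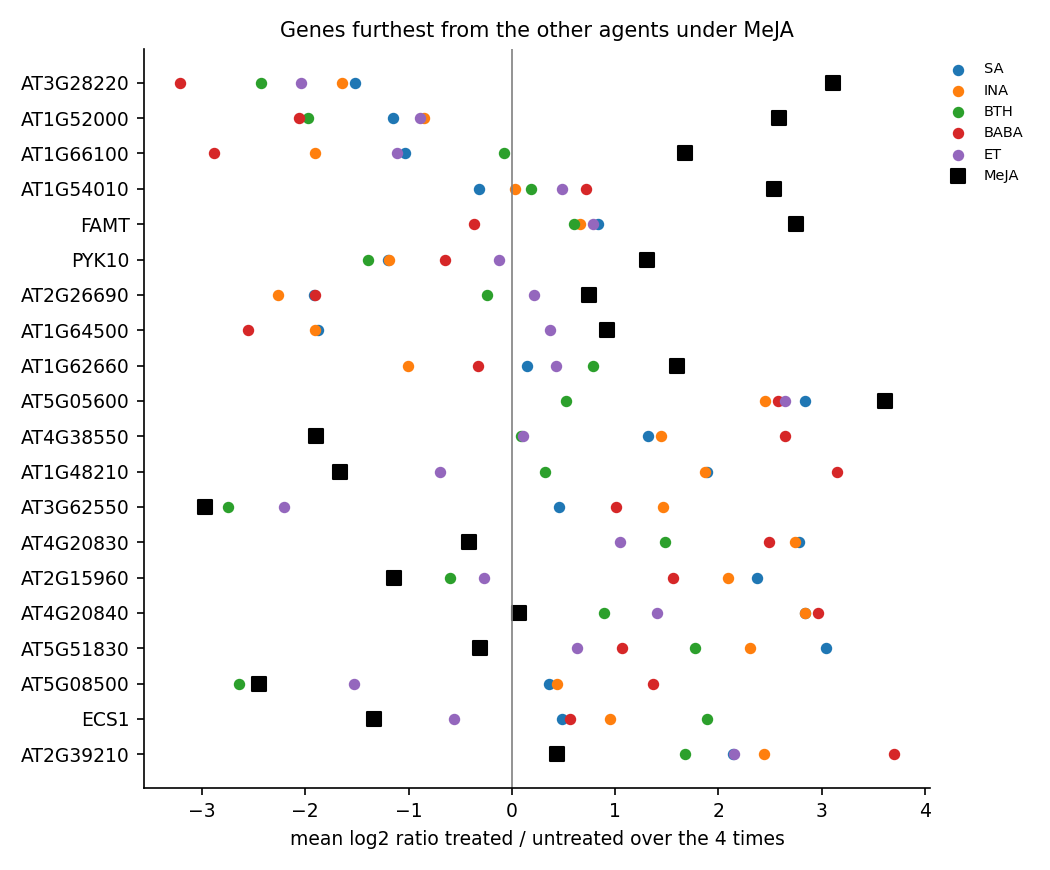
Mean log2 ratio of treated to untreated over the 4 times (x axis) for the 10 highest and 10 lowest genes called in MeJA against the other 5 agents (y axis), with MeJA as black squares and each other agent as a coloured point. AT3G28220 stands at 3.12 under MeJA and below −1.5 under all others, while AT4G20840 and AT2G39210 are near 0 under MeJA and above it elsewhere.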

How the data were processed

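The deposited values are log ratios of Cy5 (treated) over Cy3 (untreated), taken here as log2. The logarithm's base, and any background correction, filter or normalization, are not stated in the sources used here, and a natural logarithm is possible. Per the labels, each spot is the median of its pixel intensities. The array has 2560 spots, of which 884 carry 1 gene symbol, 0 several, and 1676 are unnamed here. Symbols were updated through RefSeq (TAIR10.1), which matched 415 of 416 genes.

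Arrays were centred on their medians, the spots of a gene were averaged (TUA5 has 54, all others 2), and repeat arrays of other agents were averaged to 24 conditions. Missing values stayed missing. Tests used limma 3.58.1 in R 4.3.3 as described above (12 residual and 5.798 prior degrees of freedom for complete genes), and were checked on simulated data. The untreated RNA's own spread was not estimated. No intensities were used, so signal over background is unknown.

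Members and gene lists were chosen with earlier results of these data known. Of 257 listed loci, 44 are on the array. Family lists without listed loci were matched by gene synonyms and not by product names, so they miss members of their families. Lists were described by counts and medians, without a set test. Named genes are the 10 highest and 10 lowest calls per comparison, the 5 highest and lowest values per time and sign-changing calls. Also named are listed jasmonate, ER body and cold genes, members of other lists called against untreated plants, and TUA5, EIN3 and PDF1.2. The list members FUG1, GTR1, BGLU33 and AT1G29660 were called only against the other agents, all higher under MeJA, and are not described above. Genes shown for their shape, APL3 and AT4G30650 beside the cold list were chosen after their values were seen. Promoter and protein sequences were not used here.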

Additional observations from a re-analysis of the deposited data

Results flagged for a closer look

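MeJA differed from the mean of the other 5 agents, by limma's test of that difference, in 78 of 181 genes, and the 10 highest and 10 lowest are listed here as log2 differences of means over the course. Higher under MeJA were AT3G28220 (5.28), AT1G52000 (3.97), AT1G66100 (3.08), AT1G54010 (2.32), FAMT (2.25), PYK10 (2.22), the NPF family transporter gene AT2G26690 (1.97), the glutaredoxin-like AT1G64500 (1.94), the invertase AT1G62660 (1.60) and AT5G05600 (1.41). Lower under MeJA were AT4G38550 (−3.01), AT1G48210 (−2.97), AT3G62550 (−2.56), AT4G20830 (−2.53), AT2G15960 (−2.17), AT4G20840 (−2.12), the sugar kinase family gene AT5G51830 (−2.07), AT5G08500 (−2.05), ECS1 (−2.00) and AT2G39210 (−1.99). Adjusted p was at most 0.0393, that of AT1G64500, which missed the threshold in 10 other settings. Each MeJA mean rests on 4 arrays.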

How the results depend on the processing

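Of 2067 values of 101 gene results under 26 settings, 1869 kept direction and call, 196 lost the call and 2 turned sign; 45 results were called in every setting run. Early calls (48) numbered 26 without centring (19 higher, 7 lower), 79 with arrays scaled to one spread, 76 after quantile normalization and 255 with unnamed spots added. Centring on TUA5 adds 0.52 early and 1.19 late to every gene, giving 37 early calls (33 higher, 4 lower) and 134 late ones (127 higher, 7 lower), with the median of all genes at 0.50 and 1.11. It turned the sign of 3 of 48 late calls (MCCB at 0.18, AT5G44020 at 0.00975 and AT4G26910). Late calls (48) numbered 302 with unnamed spots. Late minus early (1) gave 0 calls without centring, on TUA5, with unnamed spots, with the first spot only and with centring on spots measured on all 27 arrays (added after seeing the data), 5 with one spread and 7 as a slope on log2 of time. The sign-changing count (1) was 0 in the same 5 settings and 3 with one spread. MeJA against the other agents (78) gave 48 calls on TUA5, 368 with unnamed spots, and 15 higher and 44 lower without centring. Leaving out 1 MeJA array gave 13 to 51 early calls, 14 to 50 late, 0 to 3 for late minus early, 0 to 3 sign changes, 0 to 1 for the phase difference against other agents (1 without 5 h) and 56 to 59 against other agents; a lone array of a phase was assumed to vary like the others. The causes were not tested. No paired analysis was possible because the replicate numbers pair no samples. With time as a term shared by all agents (an additive model), MeJA against the other agents gave 113 calls of 215 genes (50 higher, 63 lower), 76 of them among the 78. Missing values, most frequent at 24 h, limit which genes were tested.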

Other observations

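Spots without a gene name were also called. Of 962 tested unnamed spots, 210 (21.8%) passed early, 106 higher and 104 lower, and 253 (26.3%) passed late, 107 higher and 146 lower. Their early means ran from −4.67 to 4.92 and their late means from −6.21 to 4.42. None passed late minus early. Of 815 compared with the other 5 agents, 299 (36.7%) passed, 132 higher and 167 lower.

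Some named genes were left out of the tests for missing values but moved strongly under MeJA. AT2G43530, a defensin-like gene, read 2.34, 1.44, 2.31 and −0.01 at 2, 5, 10 and 24 h, while all 11 of its values under other agents were below 0. AT3G21670, a nitrate transporter family gene, read 1.27 at 2 h, 0.69 at 5 h and 3.03 at 24 h. HIS1-3, a linker histone gene known to respond to drought, read −2.18, −1.63 and −1.02 at the first 3 times. Low values of HIS1-3 were also found under other agents, where 9 of its 10 values were below 0 and the lowest was −3.08.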
